A study of Mus musculus with 8 samples.

Results

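The Ces1 and Ces2 carboxylesterases were followed in the kidneys of NZBWF1 mice at 2 ages, 28 weeks (n = 4 mice) and 8 weeks (n = 4 mice). NZBWF1 mice are the first-generation cross of New Zealand Black with New Zealand White mice and are used as a model of lupus and its nephritis. Every mouse carried this genotype, the labels name no treatment, and the ages were compared without a strain free of the disease. Total RNA of each kidney sample was hybridized to 1 Clariom S Mouse array, a 1-colour oligonucleotide array. The labels number the older mice as replicates 6, 7, 8 and 9 and the younger ones as replicates 1, 2, 3 and 4. The genes were taken by platform gene symbol from a list of 10 paralogs, Ces1c, Ces1d, Ces1e, Ces1f, Ces1g, Ces2a, Ces2b, Ces2c, Ces2e and Ces2g. Of these, 9 were on a named probe, each on 1, out of 19505 named genes. Ces2c was on no named probe and was not analysed here. Between several probes of 1 gene, the probe was to be chosen by its mean value over all 8 arrays, but no member had more than 1. The sex of the mice is not given in the labels. The family was picked with earlier results of these arrays known, so how often its members changed is a description and not independent evidence.

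Carboxylesterases are serine hydrolases of the alpha/beta-hydrolase fold that split esters, amides and thioesters. They clear ester drugs and other foreign compounds, and several also act on triacylglycerol and cholesteryl esters. Most carry a signal that keeps them in the lumen of the endoplasmic reticulum. Mice have many more of these genes than humans, lying in tandem on chromosome 8, and the enzymes are abundant in liver, gut, adipose tissue and the proximal tubule of the kidney.

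The stretches upstream of the genes are shown first, because the results below set the genes beside regulators that read such sequences. Of the 10 paralogs, 7 had an entry in the RefSeq promoter table for GRCm38.p6, and Ces1d, Ces1f and Ces2b had none. The 250 bases before the annotated start are given 5′ to 3′ on the strand of the gene for 3 Ces1 members and for 2 Ces2 members. Capitals mark TTATGTAA, the core of the D-box, and, in the Ces2 genes, the run AACTTTGCCCC. The windows are chr8:93229620-93229869 (minus strand) for Ces1e, chr8:93337210-93337459 (minus) for Ces1g, chr8:93131284-93131533 (minus) for Ces1c, chr8:104926010-104926259 (plus) for Ces2e and chr8:104733753-104734002 (plus) for Ces2a.
Ces1e: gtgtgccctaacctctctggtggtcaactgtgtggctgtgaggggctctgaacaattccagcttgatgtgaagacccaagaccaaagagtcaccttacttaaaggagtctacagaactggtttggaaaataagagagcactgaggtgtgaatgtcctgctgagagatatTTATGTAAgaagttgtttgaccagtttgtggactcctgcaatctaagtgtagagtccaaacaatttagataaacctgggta
Ces1g: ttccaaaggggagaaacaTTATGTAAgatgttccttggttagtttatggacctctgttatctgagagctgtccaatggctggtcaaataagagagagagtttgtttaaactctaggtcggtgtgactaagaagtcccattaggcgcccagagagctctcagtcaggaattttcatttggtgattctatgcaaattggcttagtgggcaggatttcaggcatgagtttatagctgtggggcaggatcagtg
Ces1c: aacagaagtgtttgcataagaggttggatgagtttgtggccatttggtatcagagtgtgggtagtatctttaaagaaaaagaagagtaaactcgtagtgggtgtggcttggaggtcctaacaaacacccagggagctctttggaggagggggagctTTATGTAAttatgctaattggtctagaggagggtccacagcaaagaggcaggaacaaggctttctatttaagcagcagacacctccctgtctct
Ces2e: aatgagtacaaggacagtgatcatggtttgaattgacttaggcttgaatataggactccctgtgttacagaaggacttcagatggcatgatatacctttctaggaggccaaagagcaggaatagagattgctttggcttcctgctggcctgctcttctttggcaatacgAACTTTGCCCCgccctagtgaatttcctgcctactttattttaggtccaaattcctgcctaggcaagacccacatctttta
Ces2a: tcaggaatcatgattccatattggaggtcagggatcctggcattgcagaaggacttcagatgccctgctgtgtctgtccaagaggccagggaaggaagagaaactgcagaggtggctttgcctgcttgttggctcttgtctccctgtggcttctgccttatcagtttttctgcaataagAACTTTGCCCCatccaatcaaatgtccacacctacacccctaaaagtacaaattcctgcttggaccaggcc

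The D-box core was found in each of the 3 Ces1 windows printed. It began 81 bases before the start in Ces1e, 94 in Ces1c and 232 in Ces1g. Across the family 5 of 6 Ces1 genes with a promoter entry held it, the others being Ces1a and Ces1b, and Ces1h did not. None of the 6 Ces2 genes in the table did. Of all 32851 promoter windows of this length 0.819% held TTATGTAA on either strand. Paralogs share sequence through duplication, so these matches are not independent of each other. The windows of Ces1b and Ces1c had an identical run of 58 bases, which ends upstream of the core. Those of Ces1a and Ces1g shared a run of 14 bases that begins with the core. The palindromic form TTACGTAA, held by 0.113% of all windows, the consensus site of HNF1 (0.00913%) and the HNF4 sequence CAAAGTCCA (0.384%) were in none of the 7 member windows, on either strand. Only these strings were searched, so sites that differ from them would be missed. The run AACTTTGCCCC is the longest that the windows of Ces2a, Ces2e and Ces2f share, picked after the windows had been seen, and 0.0183% of all windows held it. None of these sequences overlapped another in the windows printed. A match describes the letters only, and the D-box core is also read by factors of other families.

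**Figure D1:**
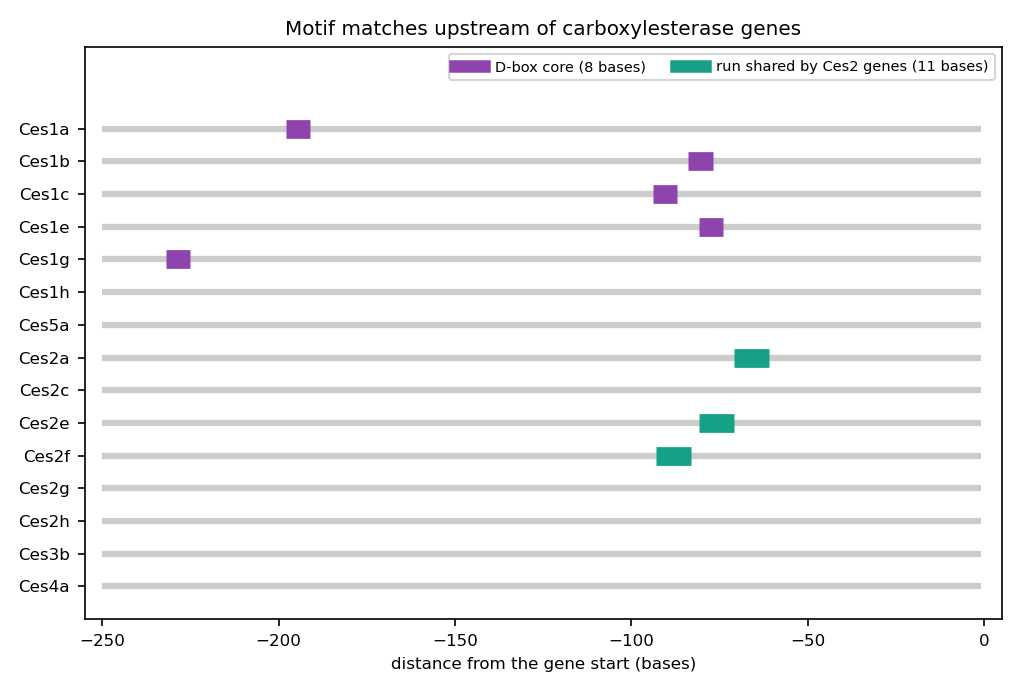
Position of the D-box core (purple) and of the run shared by Ces2 genes (green) in the 250 bases before the gene start, on the x axis in bases, for each carboxylesterase gene with a promoter entry, in chromosome order. Ces1a, Ces1b, Ces1c, Ces1e and Ces1g hold the first sequence, and Ces2a, Ces2e and Ces2f hold the second.

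Between the ages the family split. Ces1d, Ces1e and Ces2b fell at 28 weeks, by 3.62-fold, 2.51-fold and 2.91-fold. Ces1f and Ces1g had lower means at 28 weeks and Ces2e and Ces2g higher ones, and none of these 4 passed the threshold. Ces1c and Ces2a differed by less than the spread between mice. Values are log2 values after robust multi-array averaging (RMA), a background correction, normalization and probe summary, with 1 unit meaning 2-fold. Differences are 28 weeks minus 8 weeks from limma, with p adjusted by Benjamini-Hochberg over all 22206 probes and a threshold of 0.05. In all, 3 of 9 members were called lower and 0 of 9 higher, where limma called 0.968% of all probes, 0.522% as lower and 0.446% as higher. Of the members without a call, Ces2e and Ces2g were higher and Ces1f and Ces1g lower at an unadjusted p under 0.05. The share of all probes under this unadjusted cut was not counted, so counts at it, here and below, have no background beside them. The arrays of the ages did not overlap in 3 members that were lower and 1 that was higher, against 4.33% and 4.38% of all probes (8.71% in either direction). The median difference was -0.84 over the 9 members, -1.0 over the 5 Ces1 members, 0.19 over the 4 Ces2 members and -0.01 over all probes. In whole-kidney RNA, fewer cells of a type and less RNA per cell cannot be told apart.

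**Figure D2:**
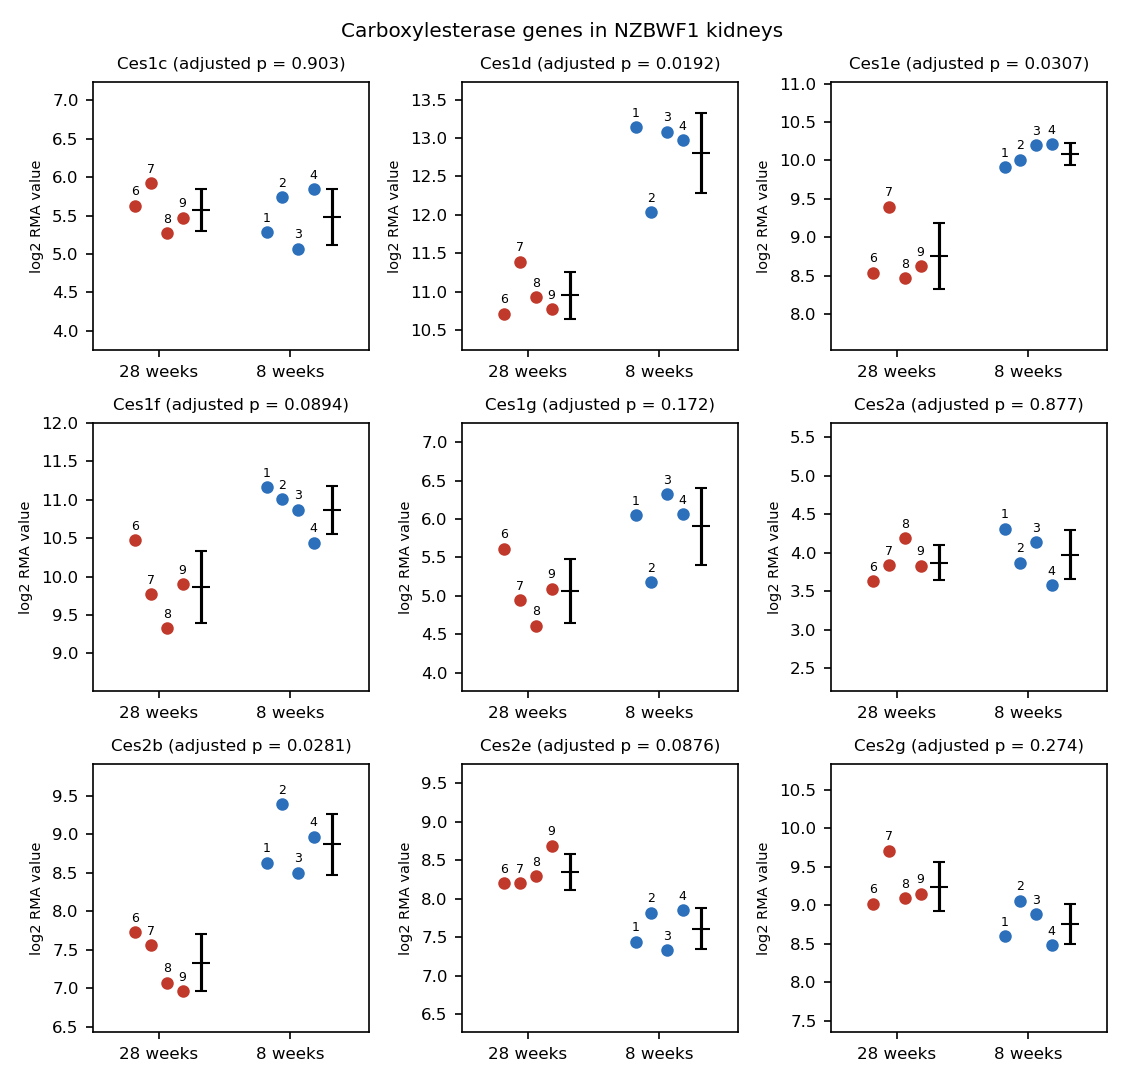
Log2 RMA value (y axis, each panel spanning the same number of units) of the 9 measured members in the arrays of 28-week mice (red) and 8-week mice (blue), with the replicate number at each point and the mean ± SD in black beside each group (n = 4). The groups lie apart in Ces1d, Ces1e, Ces2b and Ces2e, and overlap in the other members.

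2 arrays were looked at more closely, 1 for its marker values and 1 for its values over all probes. Results are given with and without them below. Over all probes, replicate 7 at 28 weeks had a median absolute difference of 0.23 to 0.25 from 8-week replicates 2, 3 and 4, about the same as from the other 28-week mice (0.24 to 0.26). Among those other 28-week mice it was 0.22 to 0.25, so over all probes replicate 7 was about as near to its age as they were. The other 28-week mice lay 0.26 to 0.32 from 8-week replicates 2, 3 and 4, so the older array nearest to these was replicate 7. Its macrophage marker score, the mean log2 difference of 13 measured markers from their 8-week mean, was 0.15, against 2.70 to 3.55 in the other 28-week mice. Replicate 1 at 8 weeks had a median absolute difference of 0.30 to 0.37 from the other young mice, against 0.22 to 0.27 among those. Array medians lay between 5.98 and 6.14. The labelled tissue was checked by its markers. The 18 measured proximal tubule markers had means of at least 13.83 at 28 weeks and 14.05 at 8 weeks, on a scale from 2.31 to 19.89.

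Ces1d encodes the triacylglycerol hydrolase of mouse liver and fat, an enzyme of the endoplasmic reticulum that mobilizes stored lipid. It was 10.71, 11.39, 10.93 and 10.77 in 28-week replicates 6 to 9, against 13.14, 12.03, 13.08 and 12.97 in 8-week replicates 1 to 4. Every older mouse lay below every younger one, and the closest pair was replicate 7 at 28 weeks and replicate 2 at 8 weeks. The mean was 10.95 ± 0.31 at 28 weeks and 12.81 ± 0.52 at 8 weeks (SD, n = 4 each). The difference was -1.86 (95% confidence interval -2.43 to -1.28, adjusted p = 0.0192).

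Ces1e is egasyn, the liver esterase known for holding beta-glucuronidase in the endoplasmic reticulum. Its values were 8.54, 9.40, 8.47 and 8.62 at 28 weeks (replicates 6 to 9), against 9.91, 10.01, 10.20 and 10.21 at 8 weeks (replicates 1 to 4). Replicate 7 was the highest of the older mice and still below all the younger ones. The mean was 8.76 ± 0.43 at 28 weeks and 10.08 ± 0.15 at 8 weeks (SD, n = 4 each), a difference of -1.33 (95% confidence interval -1.79 to -0.86, adjusted p = 0.0307). Gusb, the gene of beta-glucuronidase, was 8.57, 7.54, 8.35 and 8.29 at 28 weeks, against 7.93, 7.88, 7.45 and 7.69 at 8 weeks, and the ages overlapped. The Gusb difference was 0.45 (95% confidence interval -0.05 to 0.95, adjusted p = 0.393).

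Ces2b, a less studied member of the Ces2 group, was 7.73, 7.56, 7.07 and 6.96 in 28-week replicates 6 to 9, against 8.63, 9.39, 8.50 and 8.97 in 8-week replicates 1 to 4. The ages did not overlap, and replicate 7 was within the range of the other older mice. The mean was 7.33 ± 0.37 at 28 weeks and 8.87 ± 0.40 at 8 weeks (SD, n = 4 each). The difference was -1.54 (95% confidence interval -2.08 to -1.01, adjusted p = 0.0281).

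The calls of these 3 genes depended on single arrays, although the differences kept their size. With each array left out in turn the difference of Ces1d lay between -2.11 and -1.74, that of Ces1e between -1.54 and -1.23 and that of Ces2b between -1.68 and -1.37. The signs could not change, because the ages did not overlap. All 3 genes passed the threshold without 28-week replicate 7 and without 8-week replicate 1. Ces1d also passed without 8-week replicate 2 (adjusted p = 0.0104), and Ces2b without 28-week replicate 6 (adjusted p = 0.0384). No member passed without 28-week replicate 8 or 9 or without 8-week replicate 3 or 4, at adjusted p of 0.0536 to 0.12 for these 3 genes. Without 28-week replicate 6, Ces1d had an adjusted p of 0.0514 and Ces1e of 0.0845. Without 8-week replicate 2, Ces1e had an adjusted p of 0.0959 and Ces2b of 0.0754. Without both 28-week replicate 7 and 8-week replicate 1, an alternative added after seeing the data, all 3 passed, at an adjusted p of 0.00498 for Ces1d, 0.000679 for Ces1e and 0.00936 for Ces2b.

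**Figure D3:**
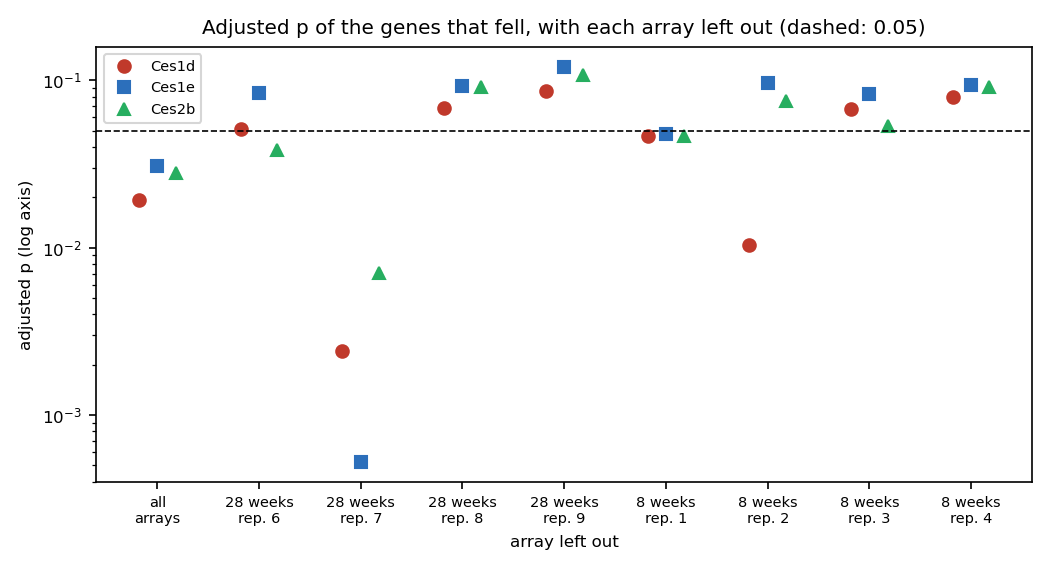
Adjusted p (y axis, log scale) of Ces1d, Ces1e and Ces2b in the fit with all arrays and in the 8 fits that leave out 1 array (x axis), with the threshold of 0.05 as a dashed line. The lowest values, 0.0024 for Ces1d, 0.000525 for Ces1e and 0.00702 for Ces2b, came without replicate 7 at 28 weeks, and the highest without replicate 9 at 28 weeks.

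Ces1f and Ces1g are the remaining Ces1 members with lower means. Ces1f, listed in RefSeq under the synonym TGH-2, was 10.47, 9.77, 9.33 and 9.90 at 28 weeks (replicates 6 to 9), against 11.16, 11.01, 10.87 and 10.44 at 8 weeks (replicates 1 to 4). Replicate 6 at 28 weeks was the only older mouse to reach the range of the young mice, just above replicate 4 at 8 weeks. The Ces1f difference was -1.0 (95% confidence interval -1.55 to -0.45, adjusted p = 0.0894). Ces1g, whose loss in mice is known to raise liver and plasma lipids, was 5.61, 4.94, 4.61 and 5.09 at 28 weeks, against 6.05, 5.18, 6.32 and 6.06 at 8 weeks. The ages overlapped through replicate 6 at 28 weeks and replicate 2 at 8 weeks. The Ces1g difference was -0.84 (95% confidence interval -1.45 to -0.23, adjusted p = 0.172). Replicate 2 at 8 weeks was the lowest young mouse in both Ces1d and Ces1g, and the highest in Ces2b.

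Ces2e and Ces2g stood on the other side. Ces2e was 8.20, 8.20, 8.29 and 8.69 in 28-week replicates 6 to 9, against 7.44, 7.82, 7.33 and 7.85 in 8-week replicates 1 to 4. Every older mouse, replicate 7 included, was above every younger one. The mean was 8.35 ± 0.23 at 28 weeks and 7.61 ± 0.26 at 8 weeks (SD, n = 4 each), a difference of 0.74 (95% confidence interval 0.34 to 1.13, adjusted p = 0.0876). Ces2g was 9.02, 9.71, 9.09 and 9.15 at 28 weeks, against 8.60, 9.06, 8.88 and 8.48 at 8 weeks. Replicate 7 was the highest of all, and replicate 6 at 28 weeks lay just below replicate 2 at 8 weeks. The Ces2g difference was 0.49 (95% confidence interval 0.05 to 0.93, adjusted p = 0.274).

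For the 2 other members no shift was seen beyond the spread between mice. Ces1c encodes the carboxylesterase that mouse liver secretes into plasma. It was 5.63, 5.92, 5.27 and 5.47 at 28 weeks (replicates 6 to 9), against 5.28, 5.74, 5.07 and 5.84 at 8 weeks (replicates 1 to 4), with a difference of 0.09 (95% confidence interval -0.38 to 0.56, adjusted p = 0.903). The interval leaves room for a change of about the size seen in Ces2g. Ces2a was 3.63, 3.84, 4.19 and 3.83 at 28 weeks, against 4.31, 3.87, 4.14 and 3.58 at 8 weeks, with a difference of -0.10 (95% confidence interval -0.53 to 0.32, adjusted p = 0.877). The Ces2a probe was dim in both ages. RMA values carry no detection call, so whether the gene was expressed was not determined.

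The order of the genes on chromosome 8 gives another view of the split. Ces1d, Ces1e, Ces1f and Ces1g are neighbours, and their differences were -1.86, -1.33, -1.0 and -0.84 in that order. Ces1a, Ces1b and Ces1c come before them, at -0.03, 0.06 and 0.09. Ces1h, which follows Ces1g, was on no named probe, and Ces5a after it was at 0.23. In the Ces2 group the order runs Ces2a (-0.10), Ces2b (-1.54), Ces2c and the pseudogene Ces2d-ps (both on no named probe), Ces2e (0.74), Ces2f (0.21), Ces2g (0.49) and Ces2h (0.37). Ces3a, Ces3b and Ces4a follow at 0.14, -0.14 and -0.06. None of the 8 measured carboxylesterases outside the member list was called by limma, and none had an unadjusted p under 0.05, with adjusted p of at least 0.463. Their mean level was 4.46 to 4.57 at 28 weeks and 4.39 to 4.46 at 8 weeks. All but Ces2h had means below the array medians of 5.98 to 6.14 at both ages. Whether these dim genes were expressed was not determined, so they are not shown to be expressed and stable. The 3 named genes on each side of the Ces1 group, Lpcat2, Capns2, Slc6a2, Gnao1, Nudt21 and Ogfod1, and those around the Ces2 group, Cdh16, Rrad, Ciao2b, Cbfb, D230025D16Rik and B3gnt9, were not called, and 1 of these 12 genes, Lpcat2, had an unadjusted p under 0.05. Their differences ran from -0.39 in Ciao2b to 1.21 in Lpcat2 (adjusted p = 0.122), and in each gene the ages overlapped. The probe sequences were not in the sources used here. Close paralogs can share probe signal, so the separate sizes within each group are uncertain.

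**Figure D4:**
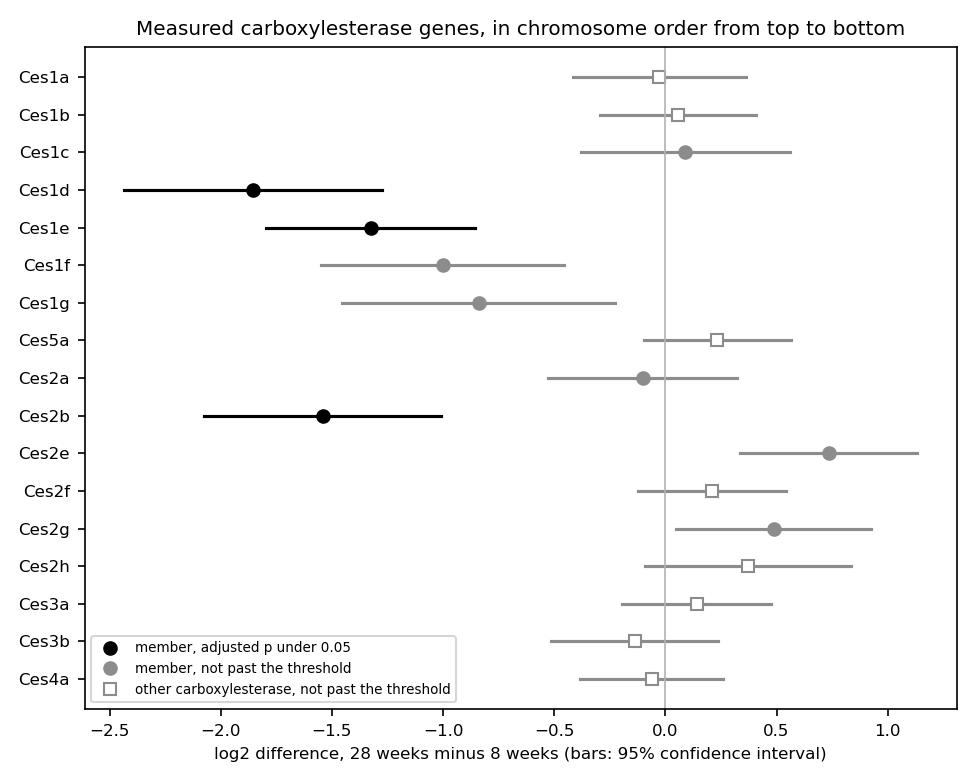
Log2 difference, 28 weeks minus 8 weeks (x axis), with its 95% confidence interval, for the 17 measured carboxylesterase genes in chromosome order from top to bottom. Ces1d, Ces1e and Ces2b (black) passed the threshold, and the 8 genes outside the member list (open squares) lie between -0.14 and 0.37.

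The members were then set beside markers of kidney cell types, and which cells made the members' RNA was not determined. All 18 measured proximal tubule markers were lower on average at 28 weeks, with a median difference of -0.37, and 11 had an unadjusted p under 0.05. Limma called 1 of them, the organic anion transporter Slc22a6 (-0.91, adjusted p = 0.0313), where it called 0.522% of all probes lower. The mean level of the list was 16.25 to 16.76 at 28 weeks and 16.84 to 16.99 at 8 weeks. With each array centred on these markers, an alternative added after seeing the data, the differences were -1.38 for Ces1d, -0.85 for Ces1e and -1.07 for Ces2b (adjusted p = 0.0137, 0.0189 and 0.0186). Relative to the markers Ces2e (1.21, adjusted p = 0.0153) and Ces2g (0.96, adjusted p = 0.017) were also called, as higher. This scaling moved the median of all probes to 0.46, from which such values are read, and called 5536 probes higher and 111 lower, against 99 and 116 as deposited.

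Markers of other parts of the kidney also differed in level between the ages. Of 12 distal and collecting duct markers 9 had negative differences, with a median of -0.52, and 7 were lower and 1 higher at an unadjusted p under 0.05. Limma called 1 of them, the calcium-binding protein gene Pvalb (9.44 at 28 weeks and 11.87 at 8 weeks, difference -2.43, adjusted p = 0.0462). Of 9 markers of the proximal straight tubule 5 had negative differences, with a median of -0.30, and 1 was called, the transporter gene Slc22a30 (11.70 at 28 weeks and 13.50 at 8 weeks, difference -1.80, adjusted p = 0.000795). At an unadjusted p under 0.05, 3 of these 9 were lower and 1 higher. Called markers with lower values in the older kidneys thus came from each of these 2 lists as well as from the proximal tubule list. Over all probes limma called 0.522% lower and 0.446% higher. Of 7 thick ascending limb markers 6 had positive differences, with a median of 0.48. Limma called 0 of these 7, and 5 had an unadjusted p under 0.05, with Slc12a1 at 0.99 (adjusted p = 0.0916) and Egf at -0.85 (adjusted p = 0.0951). Of 4 podocyte markers limma called 0 and 1 had an unadjusted p under 0.05, Podxl (-0.48, adjusted p = 0.308), and Wt1 was at -0.27. Of 7 endothelial markers limma called 0 and 2 had an unadjusted p under 0.05, Cdh5 (0.68, adjusted p = 0.166) and Kdr (-0.40, adjusted p = 0.184). Of 9 reference genes limma called 0 and 3 were higher at an unadjusted p under 0.05, among them Actb (0.86, adjusted p = 0.054) and B2m (0.92, adjusted p = 0.146). The part of these cell types in the carboxylesterase values was not tested.

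All 13 macrophage markers were higher on average at 28 weeks, with a median difference of 2.22. None passed the adjusted threshold in limma, and 13 had an unadjusted p under 0.05, led by Fcgr3 (1.16, adjusted p = 0.0506) and Lyz2 (4.54, adjusted p = 0.0607). The mean level of the list was 6.49 to 9.89 at 28 weeks and 6.11 to 6.61 at 8 weeks. The proximal tubule marker score of replicate 7 was also the nearest to the young mice, at -0.16 against -0.67 to -0.50 in the other older mice. In replicate 7, where the macrophage score was 0.15, the differences from the 8-week mean were -1.42 for Ces1d, -0.68 for Ces1e and -1.31 for Ces2b. In the other older mice they were -2.10 to -1.88, -1.61 to -1.46 and -1.91 to -1.14. Replicate 7 lay further below the young mice than replicate 6 in Ces2b, and was the older mouse closest to them in Ces1d and Ces1e. The part of macrophage RNA in these values was not tested. Liver and fat also make these enzymes, and their markers were examined too. Of 15 hepatocyte markers 9 were higher and 6 lower on average. Limma called 0 of them, and 6 were higher at an unadjusted p under 0.05. The mean level was 7.42 to 8.00 at 28 weeks and 6.83 to 7.22 at 8 weeks. The smallest p-values belonged to Serpina1a (9.92 at 28 weeks and 8.21 at 8 weeks, at an adjusted p of 0.115) and to the fibrinogen gene Fgg (12.01 at 28 weeks and 9.09 at 8 weeks, adjusted p = 0.164). Ahsg, Tat and Cyp8b1, named after their values were seen, were near the lowest values of the arrays at 28 weeks (means of 3.25, 3.05 and 2.81) and at 8 weeks (3.27, 3.09 and 2.94). Hepatocyte markers thus ran from dim to bright, and the part of liver-type RNA in the carboxylesterase values was not tested. Of 7 adipocyte markers limma called 0, and at an unadjusted p under 0.05 Fabp4 was higher and Adipoq lower. Their mean level was 4.52 to 4.82 at 28 weeks and 4.39 to 4.81 at 8 weeks. Fabp4, the gene of a fatty acid binding protein, averaged 12.05 at 28 weeks and 10.84 at 8 weeks, without overlap (adjusted p = 0.0776). Adipoq, the gene of adiponectin, was dim at both ages, with 3.82 at 28 weeks and 4.23 at 8 weeks (adjusted p = 0.263).

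**Figure D5:**
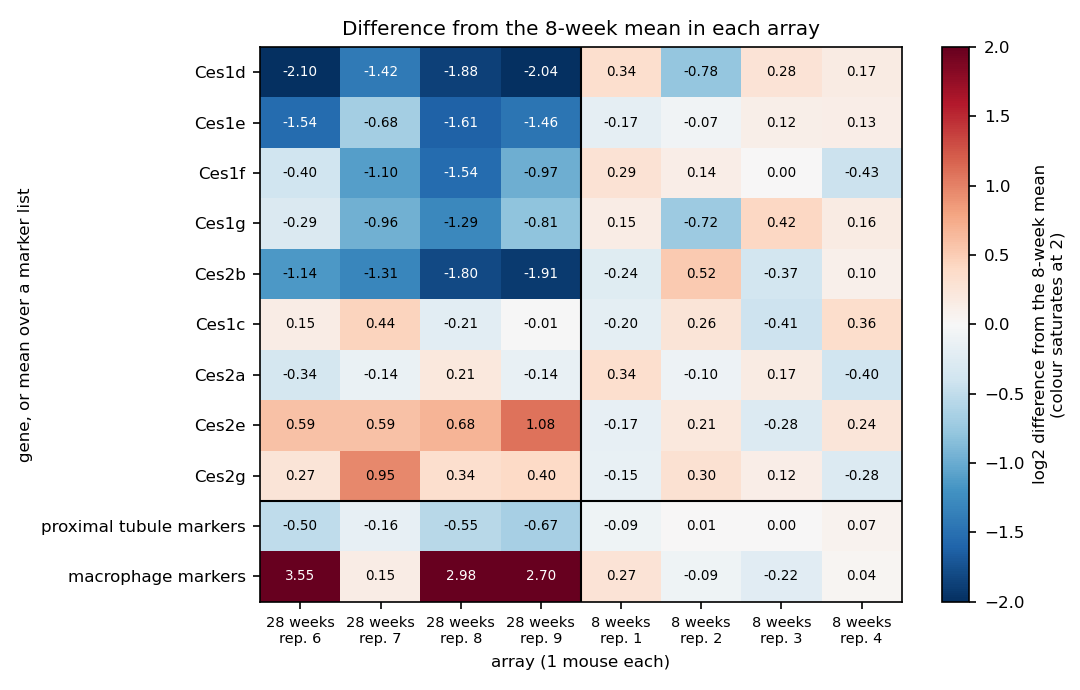
Difference from the 8-week mean (colour and printed value, log2 units) of each member and of the mean over 18 proximal tubule and 13 macrophage markers (rows) in each array (columns, 28 weeks left of the line and 8 weeks right of it). Replicate 7 at 28 weeks has a macrophage score of 0.15 and a proximal tubule score of -0.16, with Ces1d at -1.42, Ces1e at -0.68 and Ces2b at -1.31.

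A list of transcription regulators was measured in the same kidneys. Whether each acts on carboxylesterase genes in the kidney was not tested. Of 19 such factors 3 were called lower and 0 higher, where limma called 0.522% of all probes lower and 0.446% higher. At an unadjusted p under 0.05, 7 were lower and 1 higher. Among the 3 called were Dbp and Tef, PAR bZIP factors of the clock output that bind the D-box. Dbp was 10.13, 14.06, 11.05 and 12.14 at 28 weeks (replicates 6 to 9), against 16.47, 16.27, 16.50 and 16.61 at 8 weeks (adjusted p = 0.0214). Replicate 7 had the highest Dbp of the older mice. It was also the highest of them in Ces1d and Ces1e, while replicate 6 was the highest in Ces2b, Ces1f and Ces1g. Tef was 3.96, 4.84, 4.21 and 4.36 at 28 weeks, against 5.94, 5.60, 5.08 and 5.84 at 8 weeks (adjusted p = 0.0426). The Tef probe was dim, with means below the array medians at both ages. The third of this family, Hlf, had a difference of -1.16 (adjusted p = 0.102), and the ages overlapped through replicate 7. The hour at which kidneys were taken was not part of the sample information used here. For these clock outputs, and for the carboxylesterases on the same arrays, time of day and age therefore cannot be told apart. Of the 5 carboxylesterase genes that hold the D-box core, Ces1e was called lower (-1.33), Ces1g was at -0.84 (adjusted p = 0.172), and Ces1a, Ces1b and Ces1c were at -0.03, 0.06 and 0.09. Like Tef, Ces1a, Ces1b, Ces1c and Ces1g had means below the array medians at both ages. Whether these 4 genes were expressed was not determined, so small differences in them say little about a fall. Nr1h4, the bile acid receptor FXR, was the other factor called, with a difference of -1.04 (adjusted p = 0.0307). Differences were -0.34 for the pregnane X receptor gene Nr1i2, -0.24 for Nr1i3 (the receptor CAR) and -0.38 for Hnf4a, at adjusted p of 0.536, 0.719 and 0.356. Nfil3, named after its values were seen, was higher without overlap, at 6.15 to 7.46 against 5.62 to 6.11. Its difference was 0.835 (adjusted p = 0.152). The part of these factors in the carboxylesterase values was not tested.

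Other genes of neutral lipid turnover, the second role of the family, were examined next. Of 24 measured, 1 was called lower and 0 higher, where limma called 0.522% of all probes lower and 0.446% higher. Of the 24 differences 18 were negative, with a median of -0.19. Over all 22206 probes 11402 differences were negative, with a median of -0.01. At an unadjusted p under 0.05, 5 of the 24 genes were lower and 0 higher. The called gene was Dgat2, which catalyses the last step of triacylglycerol synthesis. It was 11.33, 11.89, 11.42 and 11.27 at 28 weeks, against 13.02, 12.37, 12.54 and 12.61 at 8 weeks (difference -1.16, adjusted p = 0.0309), and the ages did not overlap. Pnpla2, the first lipase of cytosolic lipid droplets, had a difference of -0.63 (adjusted p = 0.161). The ages only just failed to overlap, with a highest value of 11.79 at 28 weeks and a lowest of 11.80 at 8 weeks. The hormone-sensitive lipase gene Lipe (-0.36, adjusted p = 0.756) and Aadac, an esterase of the endoplasmic reticulum (-0.27, adjusted p = 0.541), overlapped. Of 17 other ester and epoxide hydrolases 0 were called by limma in either direction, with 5 at an unadjusted p under 0.05 and a median difference of -0.11. The smallest p-values belonged to Cmbl (-0.91, adjusted p = 0.116) and Bphl (-0.76, adjusted p = 0.122), hydrolases that activate ester prodrugs.

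Genes whose profile over the 8 arrays was most like that of each fallen member were found by the root mean square difference of the values, each gene centred on its own mean. Closest to Ces1d were Pcx, the gene of pyruvate carboxylase (0.292), the adenylate kinase gene Ak4 (0.306) and the connexin gene Gjb2 (0.31), where the median over all named genes was 1.02. Closest to Ces2b were the growth factor binding protein gene Igfbp3 (0.218), the acetoacetyl-CoA synthetase gene Aacs (0.253) and the vitamin transporter gene Slc5a6 (0.271), against a median of 0.877. Closest to Ces1e were the cytokine gene Il15 (0.105), the glucose transporter gene Slc5a2 (0.168) and the peroxisomal oxidase gene Acox3 (0.179), against a median of 0.754. These genes were picked for their likeness, so it is a description with no test. Among the members themselves, Ces1d was nearest to Ces1e (0.426), Ces1f to Ces1g (0.41), Ces2b to Ces1e (0.402) and Ces2e to Ces2g (0.378). Ces1d and Ces2e were the least alike (1.4).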

How the data were processed

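Kidney RNA of 8 mice was measured on 8 arrays. Trizol extraction and biotinylated cRNA are stated per the labels' protocols. The authors deposited log2 values, made with RMA per the submitters' processing notes. For its version, the software and the genome build, nothing is stated. Base 2 is the usual scale of RMA and fits the range from 2.31 to 19.89, but was not stated. Precision is set by the 4 arrays of each age.

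Groups came from the sample labels, with each array counted as 1 mouse. All 22206 probes were fitted without a filter, with lmFit and eBayes (limma 3.58.1, R 4.3.3), after testing the code on simulated data. By the platform annotation, 19572 probes carry 1 symbol, 2634 carry none and 0 carry more. All of those symbols matched a RefSeq gene table (GRCm38.p6) through the gene identifier. No array was a copy of another: pairs of arrays had the same value at 0.712% to 1.37% of the probes. Python 3.11.15 (pandas 2.3.3, matplotlib 3.10.9) made the tables and plots. Scan dates were not used here, and batches were not examined.

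The members and the gene lists were chosen with earlier results of these data known. The naming rule took all carboxylesterases, up to 4 called genes per list or the 2 with the smallest p, a set of always named regulators and lipases, the neighbouring genes and the nearest profiles. Genes named outside this rule are marked as such. Alternatives were median, quantile and reference gene scaling, a filter on dim probes, other variance settings, a stricter threshold, each array left out, and 2 added after seeing the data (scaling on proximal tubule markers, and leaving out 2 arrays).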

Additional observations from a re-analysis of the deposited data

Results flagged for a closer look

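Of the 18 groups of 4 arrays formed by 9 members and 2 ages, 2 held a value whose gap to its nearest neighbour was a large share of the whole range of the group (Dixon's 95% limit for 4 values). Chance flags about 1 in 20 such groups. Ces1e in replicate 7 at 28 weeks was 9.40, with a gap of 0.839 of the range above the other older mice. Ces1d in replicate 2 at 8 weeks was 12.03, with a gap of 0.847 of the range below the other young mice. Both values lie between the ages, and without either array the difference was -1.54 for Ces1e and -2.11 for Ces1d.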

How the results depend on the processing

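No paired analysis was possible because the replicate numbers of the ages (6 to 9 and 1 to 4) are not shared. The count of 3 called members was the same under array median, quantile and reference gene scaling, without the dimmest 33.3% of probes (which leaves out Ces2a), with trend and robust options, with array weights and with a pair of arrays left out (28-week replicate 7, 8-week replicate 1). It was 0 at an adjusted p under 0.01, 5 with arrays centred on proximal tubule markers, and between 0 and 3 with each array left out. The count of called probes was 399 with trend and robust options, 873 with array weights, 18 at an adjusted p under 0.01, 1384 with that pair left out, 5647 centred on proximal tubule markers, and between 25 (without 28-week replicate 9) and 1237 (without 28-week replicate 7) with each array left out, against 215. Only Ces1c and Ces2a changed sign, never past the threshold. Ces1c was -0.074 with array weights, -0.048 without 8-week replicate 3, -0.026 without 28-week replicate 7 and -0.093 with the pair left out, and ranged from -0.048 to 0.21 with each array left out. Ces2a was 0.063 with array weights, 0.0092 without 8-week replicate 1, 0.02 with the pair left out and 0.37 centred on proximal tubule markers, and ranged from -0.23 to 0.0092 with each array left out. The cause of these shifts was not tested.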

Other observations

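Enzymes of conjugation, which act on the products that carboxylesterases release, were split in direction. Of 35 measured glucuronosyl, glutathione and sulfo transferase genes 1 was called lower at 28 weeks and 0 higher, with 17 differences positive, 18 negative and a median of -0.01. Over all probes limma called 0.522% lower and 0.446% higher. At an unadjusted p under 0.05, 7 of these 35 genes were lower and 3 higher. The called gene was the glutathione transferase Gstt2, which was 13.68, 13.99, 13.75 and 13.54 at 28 weeks (replicates 6 to 9), against 15.56, 15.19, 14.80 and 14.92 at 8 weeks (difference -1.38, adjusted p = 0.017). A list of 5 chaperones and folding enzymes of the endoplasmic reticulum, the 3 KDEL receptors that return proteins to it, and Gusb had positive differences in 9 of 9, with a median of 0.23, and limma called 0 of them, with 1, Calr, at an unadjusted p under 0.05 (0.43, adjusted p = 0.18). Calr encodes the chaperone calreticulin.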
